A study of Mus musculus with 24 samples.

Results

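Macrophages and monocytes in a tumour make different surface receptors and lectins according to their origin and state. Described here are 10 genes of such proteins, among the 27368 genes counted in whole mouse tumours. They are Cx3cr1, Ccr2, Vsig4, Fcna, Clec10a, Mgl2, Mrc1, Cd163, Folr2 and Lyve1, taken by symbol from the table of raw counts, and all 10 passed the filter on low counts that kept 16560 genes. The genes were chosen with their response to radiation in these tumours known, so their differences with radiation are a description, and where a fit's calls of them are counted nothing is read from the count. The 24 tumours had grown in female C3H mice injected subcutaneously with SCC7, a squamous carcinoma line of the same species. The cells overexpressed the microRNA miR-21-5p (OE) or carried an empty vector (NC), and nothing in the labels says how many clones each line came from. Tumours of each line received X-rays together with olaparib (IR+olaparib), X-rays alone (IR, 8 Gy per day), olaparib alone, an inhibitor of the PARP enzymes (50 mg/kg), or a sham treatment. This gives 8 groups of 3 tumours, 12 irradiated and 12 unirradiated, and all groups share the SCC7 line and the host strain. Libraries held 37099055 to 40004502 counts. The labels do not say that the tumours of a group came from separate mice, so p-values measure the spread between these samples.

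Each tumour has a written treatment, with its group recorded under batch in the labels, and a coded identifier. Only 5 of the 24 fall in the same group by both. The code is used here, in which E stands for OE, I for X-rays, O for olaparib and S for sham, so that EIO-744 is an OE tumour given both treatments. The written treatment differs from the code in radiation for 8 tumours, in cell line for 8 and in olaparib for 16. Cdkn1a, a p53 target that rises after DNA damage, stood at 332 to 765 counts per 1000000 counted (CPM) in the tumours coded as irradiated, against 184 to 342 CPM in the others. By the written label the ranges overlapped almost wholly. Which of the labels is right is not stated in them. The tumour at 332 CPM was I-739, irradiated by both labels, and the other 11 irradiated tumours had 603 to 765 CPM. Mki67, a proliferation gene, was at 380 CPM in I-739 and at 21.6 to 335 CPM in the other 11, against 365 to 459 CPM in unirradiated tumours. On both genes I-739 thus lay within the unirradiated range. As a check of the cell type, 16 general macrophage genes such as Adgre1, Cd68 and Lyz2 were all detected. Their summed level ran between 3091 and 19932 CPM with irradiation and between 5914 and 15423 CPM without it, so macrophage RNA was present in every tumour. A pair of irradiated libraries stood apart in composition. EIO-744 had 95003 CPM in 6 fibroblast genes, against at most 5713 CPM in any other tumour, and I-732 had 13647 CPM in 6 skeletal muscle genes. The lowest macrophage sum, 3091 CPM, was that of I-739. The highest sum without irradiation, 15423 CPM, was that of S-761, and EO-703 came next at 8952 CPM.

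CX3CR1 and CCR2 are chemokine receptors that bring monocytes and macrophages into tissue. CCR2 marks classical, inflammatory monocytes and answers the ligands CCL2, CCL7 and CCL12, whereas CX3CR1 binds fractalkine and marks patrolling monocytes and some tissue macrophages. VSIG4, ficolin A (Fcna), the mannose receptor (Mrc1), CD163, the folate receptor beta (Folr2) and LYVE1 are typical of tissue-resident or perivascular macrophages, which take up debris, haemoglobin, microbes or hyaluronan. Clec10a and Mgl2 encode the galactose-type lectins MGL1 and MGL2, which sit side by side on chromosome 11 and are used as markers of alternatively activated macrophages and, for MGL2, of a class of dermal dendritic cell. In whole tumours fewer cells of a type and less RNA per cell cannot be told apart.

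Stretches of DNA just upstream of the annotated starts are shown for genes whose values are described below, from the RefSeq promoter table on build GRCm38.p6. Vsig4 and Fcna are shown because their levels kept together across tumours, and Mgl2 because it parted from its neighbour. Capitals mark GAGGAA, or its reverse complement TTCCTC, which is a core of the sites bound by the myeloid factor PU.1. The stretches are chrX:96293439-96293688 on the minus strand, chr2:25628031-25628224 on the minus strand and chr11:70130107-70130328 on the plus strand, each ended before the first annotated exon base.
Vsig4: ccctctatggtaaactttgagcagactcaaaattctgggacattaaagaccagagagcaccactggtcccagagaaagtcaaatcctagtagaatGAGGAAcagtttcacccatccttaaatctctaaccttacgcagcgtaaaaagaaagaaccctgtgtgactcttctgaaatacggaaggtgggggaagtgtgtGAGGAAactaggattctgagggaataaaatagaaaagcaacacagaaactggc
Fcna: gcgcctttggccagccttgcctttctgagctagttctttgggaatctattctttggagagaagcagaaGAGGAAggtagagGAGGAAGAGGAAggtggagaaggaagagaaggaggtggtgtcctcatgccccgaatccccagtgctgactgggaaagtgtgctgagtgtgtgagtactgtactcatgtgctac
Mgl2: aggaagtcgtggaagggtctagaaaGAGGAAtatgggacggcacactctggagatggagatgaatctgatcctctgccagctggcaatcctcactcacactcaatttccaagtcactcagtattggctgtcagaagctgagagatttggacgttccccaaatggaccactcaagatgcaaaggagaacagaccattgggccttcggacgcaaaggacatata
Of 32851 annotated promoters, 23.3% hold the letters GAGGAA on either strand in the 250 bases before the start. Of 9 promoters found for 8 of the 10 genes, 4 hold them, those of Vsig4, Fcna, Mgl2 and Mrc1. The promoters of Clec10a and Lyve1 are named only. The microRNA that the OE line overexpresses is shown with its seed, bases 2 to 8, in capitals.
mmu-miR-21a-5p: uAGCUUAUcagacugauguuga

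Across the 24 tumours these genes spanned a wide range of abundance. Per kilobase of annotated exon, Mrc1 had 162 ± 79.8 CPM in irradiated and 81.5 ± 18.2 CPM in unirradiated tumours (SD, n = 12 each), and Folr2 had 136 ± 42.5 CPM and 52.4 ± 15.6 CPM per kilobase. Vsig4 was the least abundant per kilobase in unirradiated tumours, with 2.17 ± 1.21 CPM, against 8.95 ± 6.27 CPM in irradiated ones. Cx3cr1 had 9.24 ± 10.2 CPM per kilobase in irradiated and 44.4 ± 15.7 CPM in unirradiated tumours. Mrc1 and Folr2 thus led on this scale in both settings, and Cx3cr1 came close behind them only where no radiation was given.

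**Figure D1:**
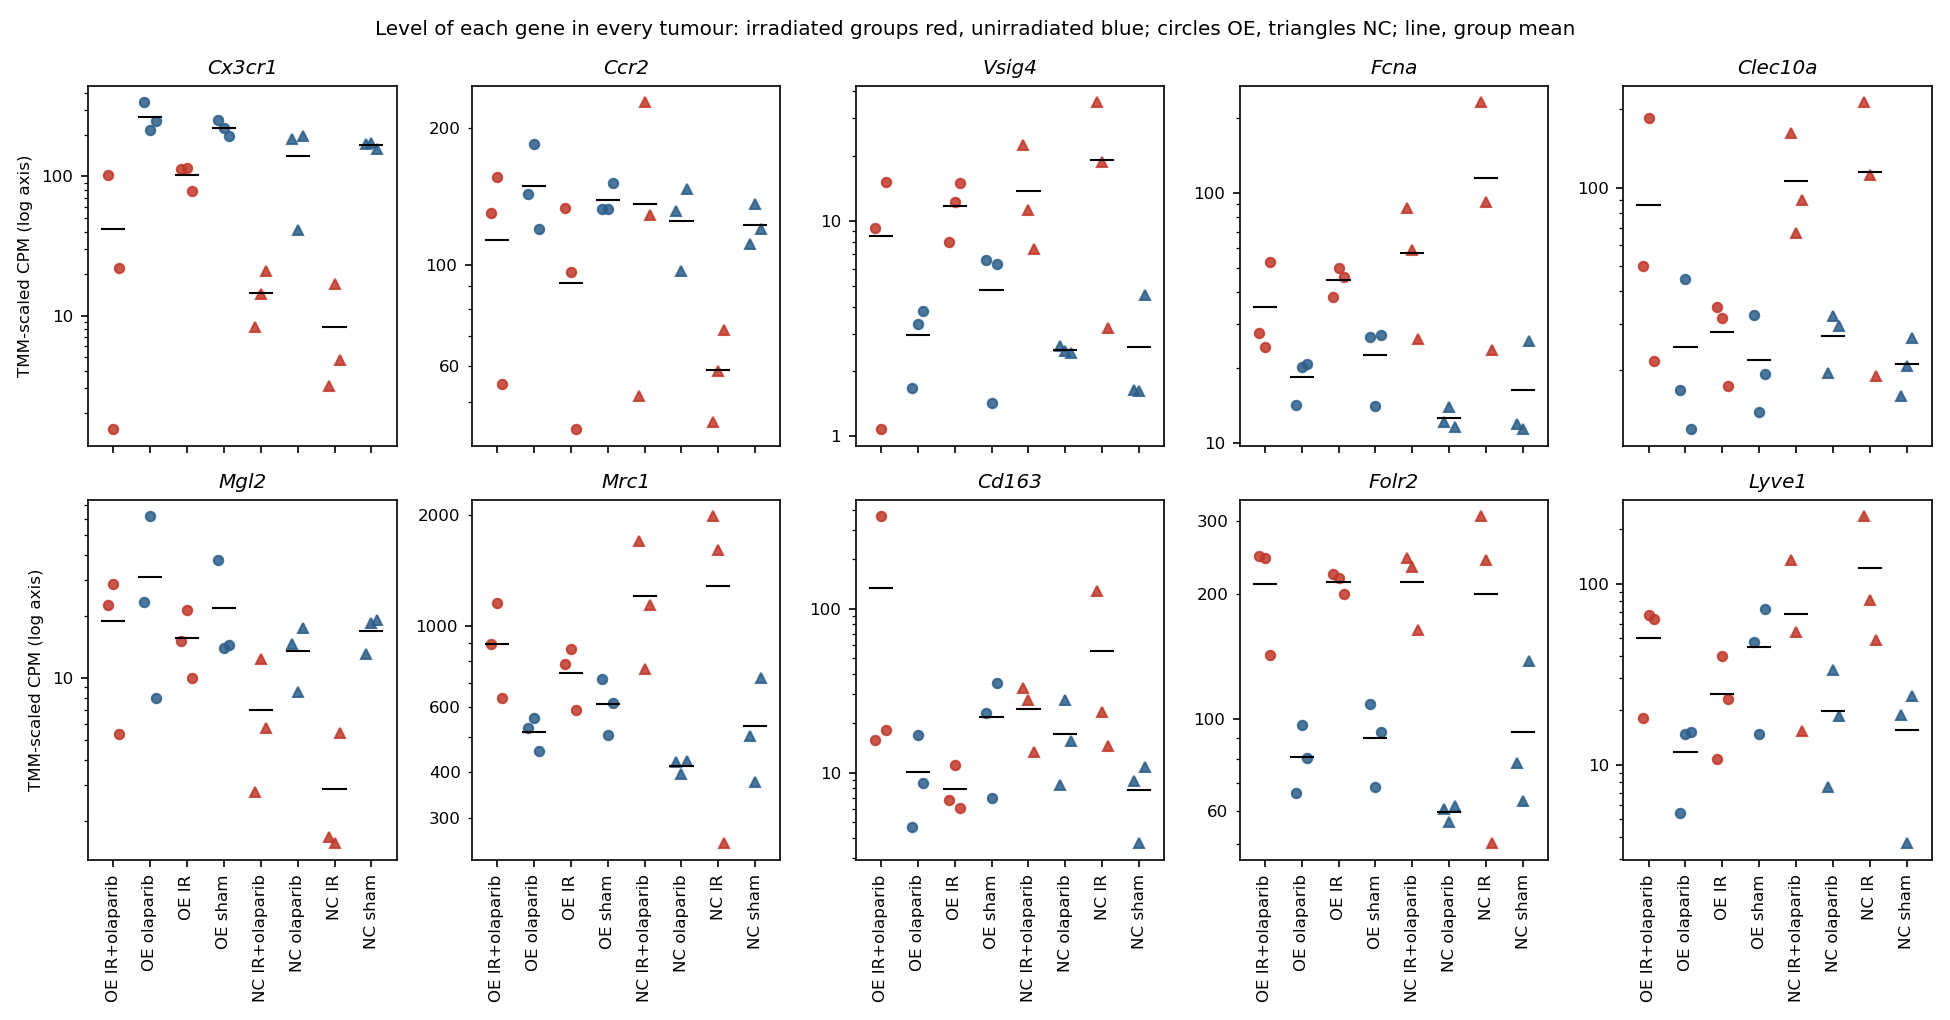
TMM-scaled CPM of the 10 genes on log axes, 1 point per tumour in 8 groups of 3, with irradiated groups in red, unirradiated groups in blue, circles for OE, triangles for NC and a line at each group mean. Cx3cr1 lies at 20.9 CPM or lower in all 6 irradiated NC tumours, while Folr2 lies higher in 11 of 12 irradiated tumours than in any unirradiated one.

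In irradiated tumours the levels of Cx3cr1, Mgl2 and, by less, Ccr2 were lower on average, and those of Vsig4, Fcna, Clec10a, Mrc1, Cd163, Folr2 and Lyve1 were higher. A gene is said to be called where edgeR's quasi-likelihood test gave a Benjamini-Hochberg adjusted p under 0.05. For the average radiation effect over 4 strata (both cell lines, with and without olaparib), 39.1% of all 16560 tested genes were called, 21.7% as higher and 17.5% as lower. Because the 10 genes were chosen on this contrast, their own count of 7 higher and 2 lower is the choice itself and is no evidence about them. Their median log2 fold change was 1.40, beside 0.04 over all tested genes. Over all tested genes 0.634% had no overlap between the 12 irradiated and the 12 unirradiated tumours, and none of the 10 was among them.

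The chemokine receptors come first. Cx3cr1 (Entrez 13051, chromosome 9, 119901616 to 120069879, minus strand, mm10, GENCODE vM21) had a lowest, median and highest level of 1.52, 18.8 and 115 CPM in irradiated tumours. In unirradiated tumours these were 40.9, 195 and 341 CPM. This is a log2 fold change of -2.86 ± 0.45 (SE), with 8 of the 12 irradiated tumours under the whole unirradiated range.

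By line and treatment, Cx3cr1 was at 103, 1.52 and 21.8 CPM in OE IR+olaparib, against 341, 214 and 250 CPM in OE olaparib. It was at 112, 115 and 78.0 CPM in OE IR, against 256, 222 and 195 CPM in OE sham. In NC IR+olaparib it was at 8.25, 14.3 and 20.9 CPM, against 186, 40.9 and 195 CPM in NC olaparib. A single unirradiated tumour, O-723, thus lay well under the rest. In NC IR Cx3cr1 was at 3.11, 16.8 and 4.77 CPM, against 170, 174 and 157 CPM in NC sham.

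Within each line the irradiated and unirradiated levels of Cx3cr1 did not overlap. Among OE tumours 2 of the 10 genes, Cx3cr1 and Folr2, had no overlap between 6 irradiated and 6 unirradiated tumours, as had 8.44% of all tested genes. Among NC tumours only Cx3cr1 of the 10 had none, as had 6.99% of all tested genes. The log2 fold changes of Cx3cr1 by stratum were -2.67 ± 0.88 in OE with olaparib, -1.14 ± 0.84 in OE without, -3.28 ± 0.91 in NC with olaparib and -4.34 ± 0.96 in NC without.

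Ccr2 (Entrez 12772, chromosome 9, 124101950 to 124113557, plus strand), the classical monocyte receptor, behaved otherwise. Its lowest, median and highest levels were 43.6, 84.5 and 228 CPM in irradiated tumours, against 97.1, 133 and 184 CPM in unirradiated tumours. The log2 difference was -0.48 ± 0.22. Irradiated tumours spread to both sides of the others, with 7 of 12 below every unirradiated tumour and IO-728 above them all.

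Of 15 tested ligand genes of these receptors and related pathways, 6 were called as higher with radiation and none as lower, beside 21.7% and 17.5% of all tested genes. Ccl7, a CCR2 ligand, had 188 ± 53.9 CPM in irradiated tumours and 106 ± 26.5 CPM in unirradiated tumours (SD, n = 12 each), a log2 fold change of 0.78 ± 0.15. C3, whose fragments VSIG4 binds, was at 1635 ± 2916 CPM and 188 ± 196 CPM. EIO-744 alone had 10795 CPM of C3, and without it the irradiated mean was 803 ± 449.8 CPM (n = 11). The hyaluronan synthase gene Has1, whose product makes the LYVE1 ligand, was at 5.57 ± 10.8 CPM and 0.662 ± 0.794 CPM, or 2.53 ± 2.55 CPM in irradiated tumours without EIO-744. The more abundant synthase gene Has2 was at 31.7 CPM in irradiated and 33.6 CPM in unirradiated tumours. Cx3cl1, which encodes fractalkine and was picked as the ligand of CX3CR1 after its values were seen, was not called, with 71.2 ± 33.6 CPM and 87.7 ± 29.6 CPM in irradiated and unirradiated tumours.

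Among the complement and lectin genes, Vsig4 (Entrez 278180, chromosome X, 96247203 to 96293438, minus strand) encodes a receptor for complement fragments on resident macrophages. Its lowest, median and highest levels were 1.08, 11.7 and 35.6 CPM in irradiated tumours, against 1.43, 2.56 and 6.62 CPM in unirradiated tumours. It differed by 2.04 ± 0.41 on the log2 scale, with 10 of the 12 irradiated tumours over the whole unirradiated range. The exceptions were I-739 at 3.20 CPM and EIO-744 at 1.08 CPM, the lowest tumour of all.

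Fcna (Entrez 14133, chromosome 2, 25624666 to 25628030, minus strand) encodes ficolin A, a soluble lectin that starts the lectin pathway of complement. Its lowest, median and highest levels were 23.5, 48.2 and 230 CPM in irradiated tumours, against 11.4, 14.1 and 27.1 CPM in unirradiated tumours, a log2 fold change of 1.74 ± 0.29. It was highest in I-732, and 9 of 12 irradiated tumours lay above all unirradiated ones. By stratum the log2 fold change was 0.93 ± 0.56 and 1.00 ± 0.56 in OE with and without olaparib, and 2.19 ± 0.58 and 2.83 ± 0.60 in NC with and without it. Fcnaos, an antisense gene that overlaps 6.55% of the exon bases of Fcna, had 3 to 315 counts a tumour, at most 4.02% of those of Fcna.

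Clec10a and Mgl2 moved apart. Clec10a (Entrez 17312, chromosome 11, 70156197 to 70170834, plus strand), which encodes MGL1, had a lowest, median and highest level of 17.4, 58.4 and 213 CPM in irradiated tumours, against 11.8, 20.0 and 44.6 CPM in unirradiated tumours. Mgl2 (Entrez 216864, chromosome 11, 70130329 to 70137550, plus strand) had 1.56, 7.87 and 28.8 CPM in irradiated tumours, against 8.03, 16.2 and 61.6 CPM in unirradiated tumours. The log2 fold changes were 1.65 ± 0.37 for Clec10a and -1.18 ± 0.36 for Mgl2. By line, the Mgl2 medians in irradiated and unirradiated tumours were 18.4 and 18.9 CPM in OE, and 4.09 and 16.2 CPM in NC. Below every unirradiated tumour of their line lay 1 of 6 irradiated OE tumours and 5 of 6 irradiated NC tumours. For Clec10a the medians were 33.2 and 18.0 CPM in OE, and 101 and 23.5 CPM in NC. Above every unirradiated tumour of their line lay 2 of 6 irradiated OE tumours and 5 of 6 irradiated NC tumours. Only 18646 bases separate the genes, with no annotated gene between them.

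The ratio of the lectins gives this by tumour. Clec10a over Mgl2, as CPM, had a lowest, median and highest value of 1.47, 4.74 and 127 in irradiated tumours, against 0.710, 1.26 and 3.77 in unirradiated tumours. It lay above every unirradiated value in 7 of 12 irradiated tumours and within the unirradiated range in 5. Among irradiated tumours the ratio was 1.47 to 6.46 in OE and 3.50 to 127 in NC. Among unirradiated tumours it was 0.710 to 1.47 in OE and 1.11 to 3.77 in NC. Clec10a exceeded Mgl2 most in irradiated NC tumours, where Mgl2 was at 1.68, 1.56 and 5.39 CPM in NC IR and at 2.78, 12.4 and 5.71 CPM in NC IR+olaparib.

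Reads could in part fit both lectin genes. In the longest annotated transcripts 704 bases aligned at 96.7% identity, and 2.64% of the 100-base words of Clec10a and 3.95% of those of Mgl2 occurred in the other gene. For 50-base words the shares were 8.49% and 12.2%, and for 30-base words 14.0% and 19.8%. How the authors' counting split such reads is not given in the sources used here, so the size of the ratio is uncertain to that extent.

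**Figure D2:**
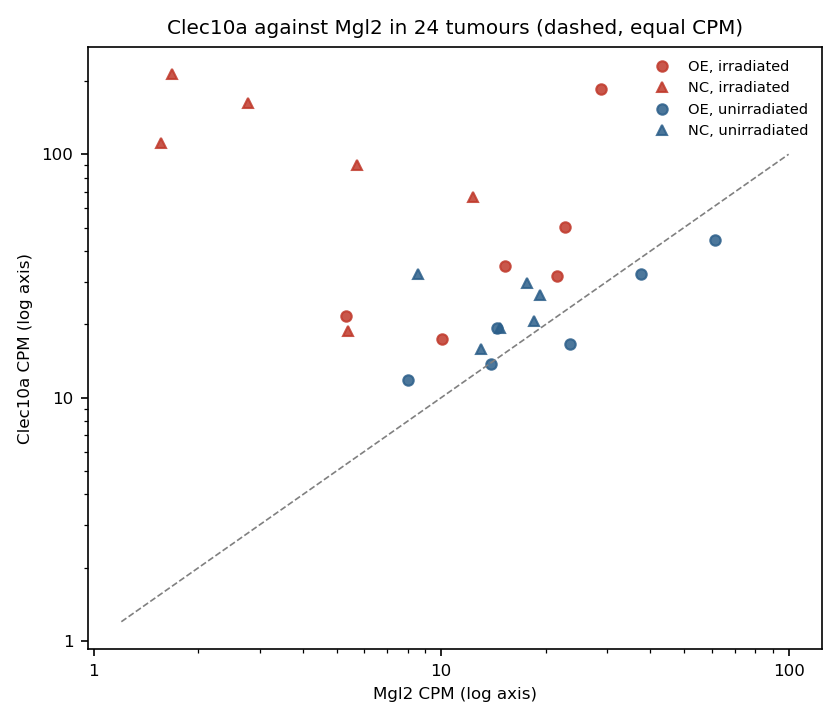
Clec10a against Mgl2 in TMM-scaled CPM on log axes, 1 point per tumour, with irradiated tumours in red, unirradiated in blue, circles for OE, triangles for NC and a dashed line at equal CPM. Irradiated NC tumours lie farthest above the line, with ratios of 3.50 to 127, and unirradiated OE tumours lie near it, with 0.710 to 1.47.

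The scavenger and uptake receptors were higher after radiation, and Folr2 most evenly. Folr2 (Entrez 14276, chromosome 7, 101839988 to 101857194, minus strand), the folate receptor of tissue macrophages, had a lowest, median and highest level of 50.1, 229 and 308 CPM in irradiated tumours, against 56.5, 73.4 and 138 CPM in unirradiated tumours. Folr2 differed by 1.39 ± 0.21 on the log2 scale, with values of 1.38 ± 0.43, 1.25 ± 0.43, 1.84 ± 0.43 and 1.10 ± 0.42 in OE with and without olaparib and NC with and without it. I-739, the tumour with the lowest sum of macrophage genes, was below all unirradiated tumours, and the other 11 irradiated tumours were above all of them. Gm10602, an antisense gene that overlaps 63.1% of the exon bases of Folr2, had 1 to 18 counts a tumour, at most 0.826% of those of Folr2.

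Mrc1 (Entrez 17533, chromosome 2, 14229392 to 14332057, plus strand), the mannose receptor, had 256, 878 and 1981 CPM as its lowest, median and highest level in irradiated tumours, against 377, 503 and 719 CPM in unirradiated tumours. Its log2 fold change was 0.97 ± 0.23, and 9 of 12 irradiated tumours lay above all unirradiated ones. Here too I-739 was the lowest of the 24. Without I-739 the log2 fold change was 1.08 for Mrc1, 1.503 for Folr2, 2.16 for Vsig4, 1.85 for Fcna and -2.80 for Cx3cr1.

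Lyve1 (Entrez 114332, chromosome 7, 110850607 to 110863239, minus strand), a hyaluronan receptor of perivascular macrophages and lymphatic vessels, had 10.7, 51.6 and 235 CPM in irradiated tumours, against 3.67, 16.8 and 72.2 CPM in unirradiated tumours. Its log2 fold change was 1.49 ± 0.43, and the groups overlapped broadly, with 3 of 12 irradiated tumours above all others. In OE IR Lyve1 was at 10.7, 39.9 and 23.0 CPM, against 47.6, 14.8 and 72.2 CPM in OE sham. In this stratum alone among the 4 its fitted change was below 0, at -0.87 ± 0.84. Of 6 lymphatic endothelial markers 4 were called as higher, beside 21.7% of all tested genes. The sum of the 6 lay between 280 and 855 CPM with irradiation and between 180 and 393 CPM without it. Pdpn made up most of this sum, with a mean of 533 CPM in irradiated and 273 CPM in unirradiated tumours. Flt4 was at 5.44 CPM and 6.08 CPM. Prox1, the defining lymphatic factor, was at 0.374 ± 0.533 CPM and 0.101 ± 0.150 CPM, or 0.227 ± 0.160 CPM in irradiated tumours without EIO-744. The part of such vessels in the Lyve1 level was not tested.

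Cd163 (Entrez 93671, chromosome 6, 124304656 to 124330527, plus strand), the scavenger receptor for haemoglobin bound to haptoglobin, rested on few tumours. Its lowest, median and highest levels were 6.10, 17.0 and 365 CPM in irradiated tumours, against 3.70, 9.87 and 35.1 CPM in unirradiated tumours. Its log2 fold change of 1.40 ± 0.50 was 0.65 without EIO-744, the tumour at 365 CPM. It was 0.27 without that tumour and I-732, which stood at 128 CPM, and Cd163 was no longer called in either fit. Leaving out 1 tumour at a time removed the call in 9 of 24 fits. OE IR tumours had 6.78, 11.1 and 6.10 CPM, against 23.2, 7.00 and 35.1 CPM in OE sham, a log2 value of -1.45 ± 1.00.

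Over all tested genes the share called for radiation was 6.78% in OE with olaparib, 0.248% in OE without, 1.46% in NC with olaparib and 10.0% in NC without. Of the 10 genes 1 (Cd163), 0, 1 (Folr2) and 6 were called in these strata. The same tumours served to choose the genes, so nothing is read from these counts.

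**Figure D3:**
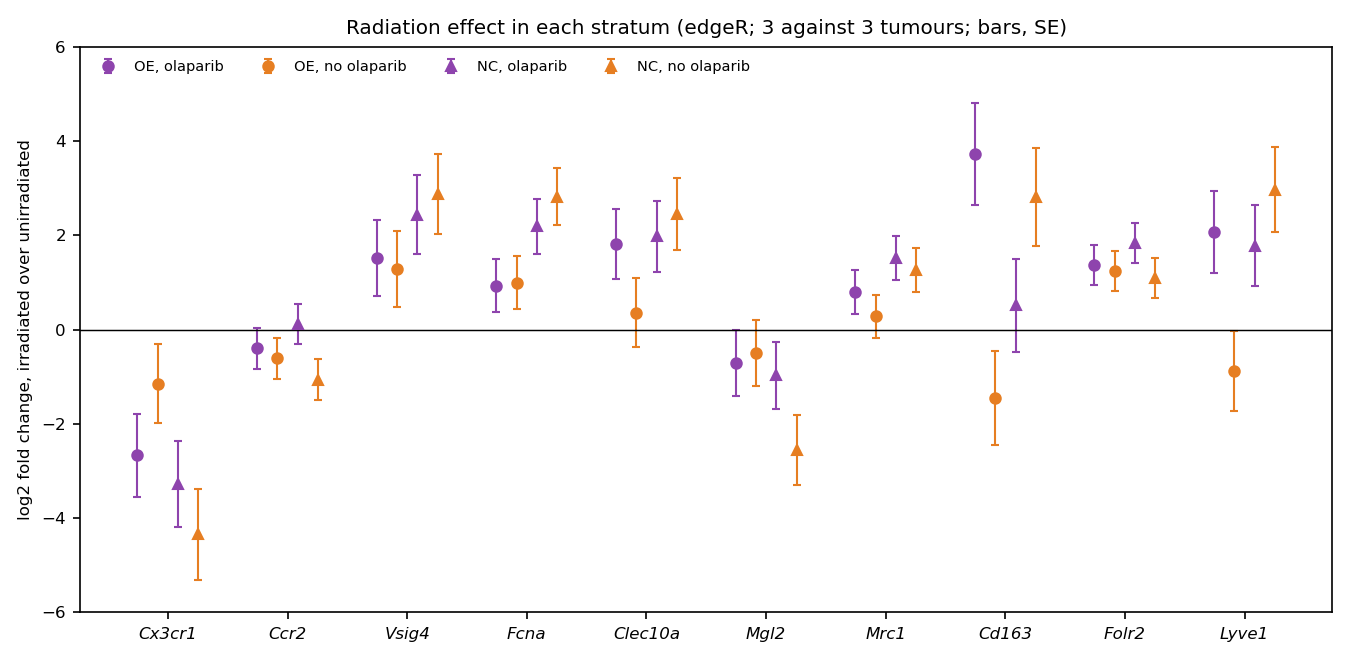
Fitted log2 fold change of irradiated over unirradiated tumours for each gene in 4 strata of 3 against 3 tumours, with bars of 1 SE, circles for OE, triangles for NC, purple with olaparib and orange without. Cx3cr1 lies below 0 and Vsig4, Fcna, Clec10a, Mrc1 and Folr2 above 0 in all 4 strata, whereas Cd163 and Lyve1 lie below 0 in OE without olaparib.

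Of 16 general macrophage genes 10 were called as higher with radiation and none as lower, beside 21.7% and 17.5% of all tested genes, with Adgre1, which encodes F4/80, at 546 ± 210 CPM in irradiated and 277 ± 67.1 CPM in unirradiated tumours (SD, n = 12 each). The mean log2 CPM of these 16 genes was 8.63 ± 0.65 in irradiated and 8.07 ± 0.30 in unirradiated tumours. Set against that mean in the same tumour, Cx3cr1 was 3.76 log2 units lower in irradiated tumours, Mgl2 1.71 lower and Ccr2 1.17 lower.
On the same relative scale Vsig4 was 1.10 log2 units higher, Fcna 0.99, Clec10a 0.84, Lyve1 0.84, Folr2 0.74, Cd163 0.43 and Mrc1 0.27. Mrc1 therefore differed little once the general macrophage level was taken off, with 1.19 ± 0.41 in irradiated and 0.92 ± 0.29 in unirradiated tumours. The differences of Cd163 and Lyve1 were also smaller than either SD. Cd163 had -4.05 ± 1.71 in irradiated and -4.47 ± 1.03 in unirradiated tumours, and Lyve1 had -3.10 ± 1.42 and -3.94 ± 1.22.

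**Figure D4:**
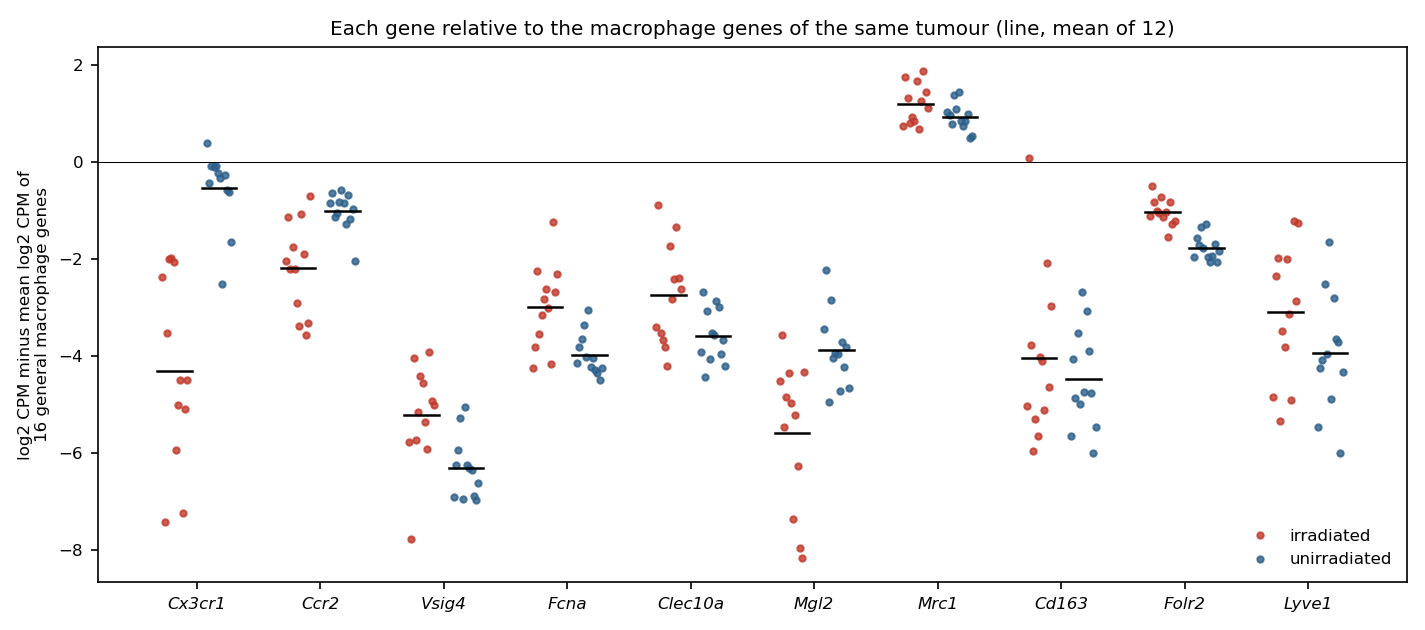
Log2 CPM of each gene minus the mean log2 CPM of 16 general macrophage genes in the same tumour, irradiated tumours in red on the left of each pair and unirradiated tumours in blue on the right, with a line at the mean of 12. Cx3cr1 had a mean of -4.31 in irradiated and -0.55 in unirradiated tumours, the widest gap of the 10.

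Related gene lists were counted in the same radiation contrast, where 21.7% of all tested genes were called as higher and 17.5% as lower. Of 16 tested genes of resident macrophages 10 were higher and none lower, among them Cd5l, a secreted scavenger of macrophages, at 6.44 ± 6.98 CPM and 0.505 ± 0.574 CPM, and the chemokine gene Ccl8 at 1311 ± 605 CPM and 394 ± 184 CPM in irradiated and unirradiated tumours. Of 8 classical monocyte genes 6 were higher, with Chil3 at 8.82 ± 8.25 CPM and 0.739 ± 0.611 CPM and Plac8 at 131 ± 79.3 CPM and 48.1 ± 19.2 CPM. Of 8 genes of nonclassical monocytes 3 were higher and 2 lower. Nr4a1, the factor that these cells depend on, was at 29.9 ± 27.7 CPM in irradiated and 12.9 ± 2.05 CPM in unirradiated tumours. EIO-744 alone had 115 CPM of Nr4a1, and without it the irradiated mean was 22.1 ± 7.71 CPM. Treml4 was lower at 0.939 ± 0.776 CPM and 2.49 ± 1.07 CPM in irradiated and unirradiated tumours. Genes that CX3CR1-high macrophages share with microglia counted 0 higher and 2 lower of 6. The lower ones were Siglech, a lectin shared with plasmacytoid dendritic cells, at 0.174 ± 0.146 CPM and 2.71 ± 1.59 CPM, and Tmem119 at 40.3 ± 18.8 CPM and 54.2 ± 10.9 CPM.

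Genes of alternative activation, many of which interleukin-4 induces, were called as higher in 6 of 10 and as lower in none. The receptor gene Il4ra was at 379 ± 136 CPM and 197 ± 24.8 CPM in irradiated and unirradiated tumours. Retnla and Ccl22 of this list had lower means with radiation, at 4.04 and 5.53 CPM and at 5.41 and 7.16 CPM. EIO-744 alone had 31.8 CPM of Retnla, and without it the irradiated mean of Retnla was 1.51 ± 1.90 CPM. Il4 and Il13 did not pass the filter on low counts. Genes of inflammatory activation were higher in 3 of 9, such as Ptgs2 at 27.8 ± 18.0 CPM and 12.9 ± 7.13 CPM, and lower in 1, Il12b. Dendritic cell markers were lower in 5 of 9 and higher in none. Clec9a, the receptor of cross-presenting dendritic cells, was at 0.971 ± 0.805 CPM and 4.52 ± 3.04 CPM, and the chemokine receptor gene Ccr9 at 0.103 ± 0.0794 CPM and 1.13 ± 0.781 CPM. Markers of other cells moved with radiation as well: all 6 neutrophil genes were higher, 5 of 6 skeletal muscle genes, 2 of 6 fibroblast genes, 1 of 8 NK and T cell genes with 2 lower, and 1 of 6 squamous genes with 1 lower. Their part in the levels of the 10 genes was not tested.

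Overexpression of miR-21-5p was set against the vector over 4 strata. None of the 10 genes was called by edgeR, where 75 of all tested genes were (0.453%). Cx3cr1 and Mgl2 had an unadjusted p below 0.05, as had 2565 of all tested genes. DESeq2 called both, among 628 genes that it called in all. Cx3cr1 was at 1.52, 90.6 and 115 CPM (lowest, median and highest) in irradiated OE tumours, against 3.11, 11.3 and 20.9 CPM in irradiated NC tumours. In unirradiated tumours it was at 195, 236 and 341 CPM in OE, against 40.9, 172 and 195 CPM in NC. In each setting 5 of 6 OE tumours lay above every NC tumour. The exceptions were EIO-744 and, among unirradiated tumours, ES-741 at 195.0 CPM, just under O-724 at 195.4 CPM. On average OE and NC differed by 1.63 ± 0.43 on the log2 scale (95% interval 0.74 to 2.53, edgeR adjusted p = 0.0849), and DESeq2 gave an adjusted p of 0.0034. Adjusted p by edgeR ran from 0.00520 to 0.157 when 1 tumour was left out. Only the fit without EIO-744 made the call, and that fit called 838 genes in all.

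Mgl2 showed the same direction on average. It was at 5.31, 18.4 and 28.8 CPM in irradiated OE tumours, against 1.56, 4.09 and 12.4 CPM in irradiated NC tumours. Without radiation the lines overlapped, with Mgl2 at 8.03, 18.9 and 61.6 CPM in OE, against 8.55, 16.2 and 19.2 CPM in NC. Among sham tumours the OE median of 14.4 CPM lay below the NC median of 18.5 CPM. The log2 fold change over all strata was 1.36 ± 0.36 (95% interval 0.61 to 2.11, edgeR adjusted p = 0.0875), with adjusted p from 0.0324 to 0.167 when 1 tumour was left out. The fits without EIO-744, which called 838 genes in all, and without I-739 called Mgl2.

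None of the 10 separated OE from NC completely, neither among irradiated tumours, where 1.38% of all tested genes did, nor among unirradiated tumours, where 1.68% did. In IR tumours alone 14 genes (0.0845%) were called by edgeR and none of the 10, while 6 of them had an unadjusted p below 0.05, as had 3092 of all tested genes. There Cx3cr1 differed by 3.63 ± 0.93 on the log2 scale (edgeR adjusted p = 0.0886), the widest gap of the 4 strata. Its means in OE and NC were 225 and 167 CPM in sham and 268 and 141 CPM in olaparib tumours. In IR+olaparib tumours they were 42.2 and 14.5 CPM. For the other 8 genes the average log2 difference between OE and NC ran from -0.61 ± 0.36 for Clec10a to 0.20 ± 0.22 for Ccr2. Among the related lists the NK cell gene Klrb1c was lower in OE, at -1.45 ± 0.28 on the log2 scale (edgeR adjusted p = 0.0355).

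The cell line differs between the written label and the code for 8 tumours. EIO-744, which lay lowest in Cx3cr1, is one of them. Among the irradiated tumours in which both name the same line, 4 OE tumours had 78.0 to 115 CPM of Cx3cr1, against 3.11 to 16.8 CPM in 5 NC tumours. In the same tumours Lyve1 was at 10.7 to 39.9 CPM in OE, against 49.0 to 235 CPM in NC. The other 8 genes overlapped between these tumours, and 10.4% of all tested genes did not.

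Whether radiation acted differently in the 2 lines was tested as an interaction. By edgeR 1 gene of all was called (0.00604%), and 1882 had an unadjusted p below 0.05, of which 3 were among the 10. The log2 fold change with radiation was higher in OE than in NC by 1.91 ± 0.84 for Cx3cr1 (adjusted p = 0.399), and it was lower in OE by values of -1.55 ± 0.56 for Fcna (adjusted p = 0.309) and -1.77 ± 0.84 for Lyve1 (adjusted p = 0.440). These differences did not pass the threshold, and their intervals were wide, from 0.14 to 3.67 for Cx3cr1.

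Olaparib, over 4 strata, gave no called gene by edgeR (0%), while 1270 genes had an unadjusted p below 0.05, none of the 10 among them, and DESeq2 called 1 gene. The largest differences among the 10 were 0.73 ± 0.49 for Cd163 (95% interval -0.30 to 1.76), 0.51 ± 0.36 for Clec10a (-0.25 to 1.27) and -0.51 ± 0.28 for Fcna (-1.09 to 0.077). Cx3cr1 differed by -0.11 ± 0.42 (-0.98 to 0.76). The interaction of radiation with olaparib likewise had no called gene by edgeR (0%), with 588 at an unadjusted p below 0.05, none of the 10 among them, and 7 by DESeq2.

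All 45 pairs of the genes were correlated on log2 CPM within the 12 irradiated and within the 12 unirradiated tumours. Of these pairs 7, 1 of them negative, and 5 passed a permutation test of Spearman's rho adjusted over the 90 relations, and the others did not. The pairs named here were picked after their values were seen. Vsig4 and Fcna kept together in irradiated tumours, with rho 0.93 (adjusted permutation p = 0.0036) and Pearson's r 0.83 (adjusted permutation p = 0.0143), and in unirradiated tumours, with rho 0.80 (adjusted permutation p = 0.0301) and r 0.90 (adjusted permutation p = 0.0027). Without the 2 tumours farthest from the Vsig4 median, r was 0.94 and 0.81. Within the lines r was 0.81 and 0.95 in irradiated OE and NC tumours, and 1.00 and 0.88 in unirradiated ones (n = 6 each).

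Mrc1 and Folr2 formed a second pair. In irradiated tumours rho was 0.78 (adjusted permutation p = 0.0325) and r 0.83 (adjusted permutation p = 0.0152). There r was 0.45 without the 2 tumours farthest from the Mrc1 median, so its size depends on those tumours. It was 0.80 without I-732 and EIO-744. In unirradiated tumours rho was 0.88 (adjusted permutation p = 0.012) and r 0.90 (adjusted permutation p = 0.0021), and r stayed at 0.80 without the 2 farthest. Within the lines r was 0.72 and 0.92 in irradiated OE and NC tumours, and 0.75 and 0.97 in unirradiated ones (n = 6 each). The matching values of rho were 0.83 and 0.94 in irradiated, and 0.71 and 0.66 in unirradiated tumours. Among unirradiated NC tumours S-761 was highest in both genes, at 719 CPM of Mrc1 and 138 CPM of Folr2.

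Cd163 and Lyve1 were the third. In irradiated tumours rho was 0.83 (adjusted permutation p = 0.0236) and r 0.67 (adjusted permutation p = 0.0758), or r 0.78 without the 2 tumours farthest in Cd163. In unirradiated tumours rho was 0.85 (adjusted permutation p = 0.0169) and r 0.91 (adjusted permutation p = 0.0021), or r 0.86 without the 2 farthest. Within the lines r was 0.66 and 0.85 in irradiated OE and NC tumours, and 0.92 and 0.88 in unirradiated ones (n = 6 each).

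Clec10a kept with Mrc1 among irradiated tumours, at rho 0.92 (adjusted permutation p = 0.0018) and r 0.86 (adjusted permutation p = 0.0021), or r 0.83 without the 2 farthest, with 0.94 in OE and 0.99 in NC (n = 6 each). In unirradiated tumours the pair did not pass, at rho 0.13 (adjusted permutation p = 0.831) and r 0.21 (adjusted permutation p = 0.651), with r 0.67 in OE and -0.010 in NC. Clec10a and its neighbour Mgl2 did not pass in either setting, with rho -0.20 (adjusted permutation p = 0.673) in irradiated and 0.62 (adjusted permutation p = 0.146) in unirradiated tumours. By line their r was 0.75 (exact permutation p = 0.0806) in irradiated OE and -0.57 (exact permutation p = 0.240) in irradiated NC tumours. It was 0.94 (exact permutation p = 0.00417) in unirradiated OE and -0.19 (exact permutation p = 0.742) in unirradiated NC tumours (n = 6 each). These 4 p-values are not adjusted, and the difference between the lines was not tested. Cx3cr1 and Cd163 were opposed among irradiated tumours. Because irradiated OE and NC tumours differ in Cx3cr1, r is given within the lines only, at -0.94 (exact permutation p = 0.0361) in OE, where EIO-744 holds both extremes, and at -0.63 (exact permutation p = 0.158) in NC (n = 6 each). Spearman's rho was -0.60 (exact permutation p = 0.242) in OE and -0.66 (exact permutation p = 0.175) in NC.

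**Figure D5:**
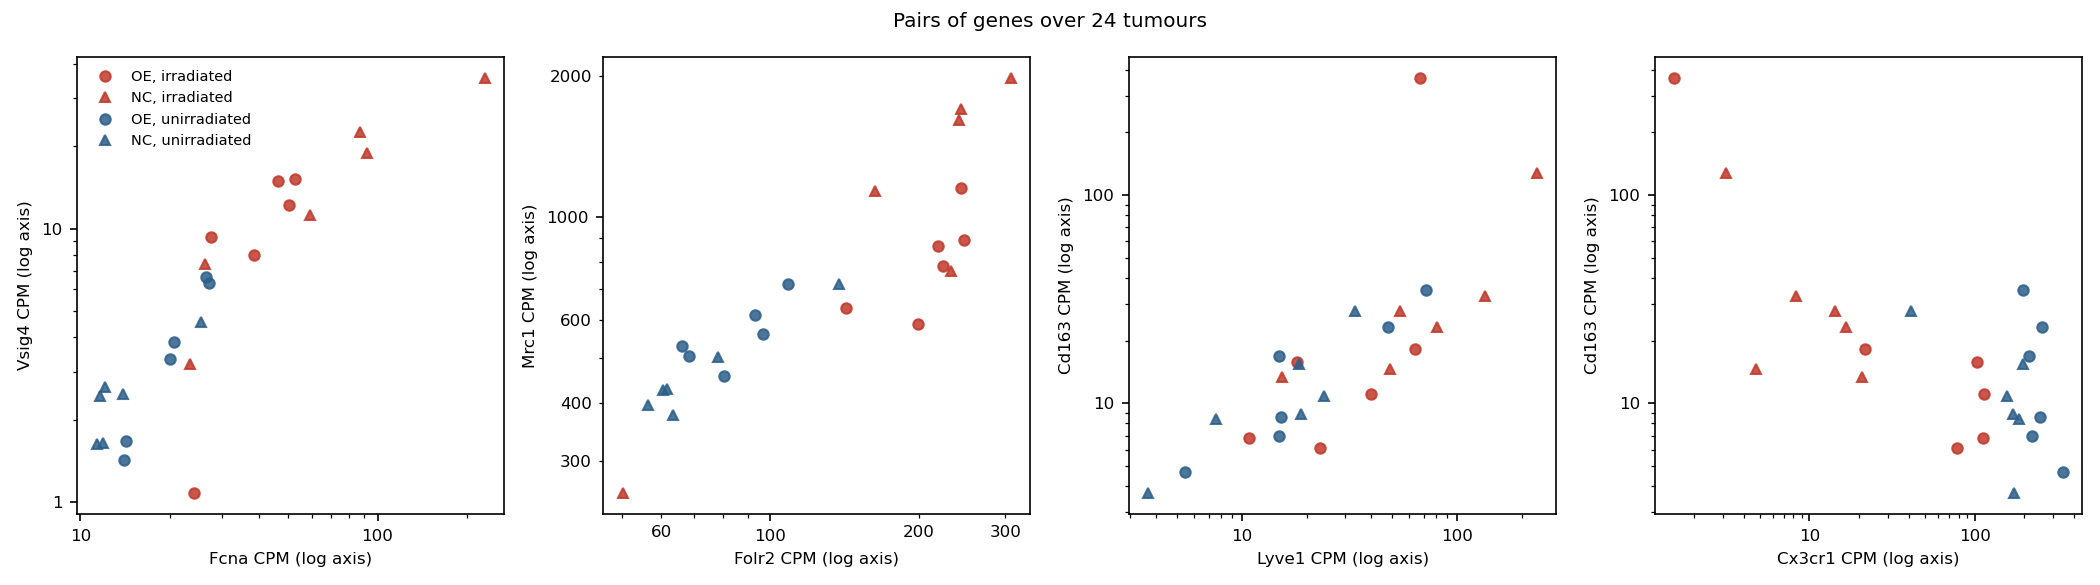
Vsig4 against Fcna, Mrc1 against Folr2, Cd163 against Lyve1 and Cd163 against Cx3cr1 in TMM-scaled CPM on log axes, 1 point per tumour, with irradiated tumours in red, unirradiated in blue, circles for OE and triangles for NC. Vsig4 and Fcna keep to one line in both settings (rho 0.93 and 0.80), apart from EIO-744 at the lowest Vsig4 level of 1.08 CPM.

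The genes most like each of the 10 across all 24 tumours were ranked by Spearman's rho, which radiation and composition shared by these libraries also move, so it is a description. Folr2 was most like Lyz2, the lysozyme gene of myeloid cells (0.97), Scamp5 (0.97) and Gas6 (0.96), the last a bridge for the uptake of dying cells. Mrc1 was most like Tprgl, Colec12 and Gas6 (all 0.95), and Fcna most like Wfdc17 (0.87), Ctsd (0.87) and Lyz2 (0.86). Clec10a was most like Cp, Spon1 and Cul9 (all 0.92). Ccr2 was most like Plxnc1 (0.84), Limd1 (0.82) and Itgax (0.80), and Mgl2 most like Fam167b (0.81), Gpr84 (0.79) and Itgax (0.79), so that both had Itgax, the integrin CD11c of dendritic cells and some macrophages, among their nearest. Vsig4 was most like Cpe (0.82), Adam8 (0.82) and Heatr5a (0.81), which in unirradiated tumours alone had rho 0.06, 0.34 and 0.37. Cd163 was most like Aldh1a1 (0.88), Fry (0.85) and Sult1a1 (0.84), and Lyve1 most like Serpina3m (0.81), Aldh1a1 (0.80) and Slc10a6 (0.79). Cx3cr1 was most like Col8a1 (0.90), Rfc1 (0.89) and Zfpm2 (0.88), with 0.73, 0.54 and 0.60 in irradiated and 0.92, 0.75 and 0.77 in unirradiated tumours.

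The radiation differences depended on which label was read. With the groups of the written label, 1 of all tested genes was called by edgeR for radiation (0.00604%), while 5099 had an unadjusted p below 0.05, 3 of the 10 among them. The log2 fold changes were then -0.93 ± 0.52 for Cx3cr1, -0.21 for Ccr2, -0.020 for Vsig4, 0.34 for Fcna, 1.45 ± 0.36 for Clec10a and -0.18 for Mgl2. Those of the uptake receptors were 0.51 for Mrc1, 1.24 for Cd163, 0.33 for Folr2 and 0.33 for Lyve1. Among the 16 tumours for which both labels give the same radiation setting, all 10 genes kept the direction of their change, with -2.66 for Cx3cr1, 1.71 for Vsig4, 1.53 for Fcna, 2.12 for Clec10a and 1.37 for Folr2, and 5 of the 9 calls were lost, those of Vsig4, Mgl2, Mrc1, Cd163 and Lyve1.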

How the data were processed

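Total RNA of 24 whole tumours was sequenced. Per the submitters' processing notes, reads were trimmed with fastp, aligned with HISAT2 to mm10 and counted with HTSeq; versions, annotation and strand setting are not given in the sources used here. The table deposited by the authors holds raw counts per gene, not normalized, and every column was mapped to a tumour by its identifier. Counting error was not used: replicate tumours set the precision.

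The 10 members, the related lists and the tests were chosen with earlier results of these data known. Tumours were grouped by the coded identifier. Differences were tested in all 24 libraries as 8 groups with edgeR 4.0.16 (R 4.3.3): filterByExpr, TMM scaling, quasi-likelihood F-test and Benjamini-Hochberg adjustment at 0.05 over all tested genes, a procedure tested on simulated data. Levels are TMM-scaled CPM, with a pseudocount of 0.5 on the log2 scale. Within a group no library was a copy of another (lowest chi-square per gene 14.4). Correlations used 100000 permutations. Exon lengths and positions came from GENCODE vM21 on GRCm38, promoters from RefSeq. Related lists were named by the 4 members or fewer with the smallest p for radiation, plus list genes called for another comparison; for likeness the 3 highest rho at a mean of at least 1 CPM, predicted genes left out. Some genes that this rule names are not reported here. Cx3cl1 was named outside it, and so were Has2, Flt4, Retnla and Ccl22, given as list members that were not higher. Alternatives were DESeq2 1.42.0 (size factors and test), no filter, additive factors, the written label, tumours with like radiation labels, and each tumour left out; 2 were added after the data were seen.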

Additional observations from a re-analysis of the deposited data

How the results depend on the processing

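All 10 genes kept the direction of their radiation change and their side of the threshold under additive factors, without the low-count filter, and with the size factors or the test of DESeq2. Leaving out any 1 tumour called between 5504 and 7540 genes. With the written label 1 gene was called for radiation, none of the 10, and Vsig4 was at -0.020 on the log2 scale. Tumours with like radiation labels gave 2827 called genes. For overexpression the count of called genes was 124 with DESeq2 size factors, 39 with no filter, 628 with the DESeq2 test, 0 with the written label, 617 without I-732 and EIO-744, 2 in tumours with like cell line labels and 15 to 838 with 1 tumour left out. For olaparib DESeq2 called 1 gene, for its interaction with radiation 7. For the interaction of radiation with cell line the count was 236 with DESeq2, 0 with the written label, 273 without I-732 and EIO-744 and 0 to 593 with 1 tumour left out. The cause was not tested for any of these shifts, and the fits without I-732 and EIO-744 and with like cell line labels were chosen after seeing the data.

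Reversed values concerned differences that had not been called, Vsig4 above excepted. With the written label they were for olaparib Cx3cr1 0.86, Clec10a -0.32, Cd163 -0.052 and Folr2 0.21, for overexpression Cd163 -1.93 and Folr2 -0.26, for radiation by olaparib Mrc1 -0.41 and Folr2 -0.080, and for radiation by line Ccr2 1.01. Without I-732 and EIO-744 they were for overexpression Vsig4 0.29, Fcna 0.065 and Cd163 -0.24, for radiation by olaparib Vsig4 0.55 and Fcna 0.24, and for radiation by line Folr2 0.026. In tumours with like line labels Cd163 was at -0.85 for overexpression. With 1 tumour left out, the ranges that crossed 0 were for olaparib Cx3cr1 -0.56 to 0.16 and Cd163 -0.023 to 1.11. For overexpression they were Vsig4 -0.23 to 0.13 and Cd163 -0.65 to 0.48. For radiation by olaparib they were Cx3cr1 -1.16 to 0.28, Vsig4 -0.47 to 0.30, Fcna -0.59 to 0.15, Clec10a -0.14 to 0.90 and Cd163 -0.053 to 2.21. For radiation by line they were Ccr2 -0.24 to 0.26, Cd163 -1.997 to 0.27 and Folr2 -0.37 to 0.10. No paired analysis was possible because the groups share no replicate numbers. With 3 tumours a group, each stratum sets only 3 against 3 tumours, which limits its precision.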
